A study of Mus musculus with 32 samples.

Results

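The 43 genes described here encode the proteins that license origins, unwind and copy DNA, join its fragments and make its deoxynucleotides. They were listed by function as mouse symbols, and each symbol was matched to its Ensembl identifier. All 43 had a row among the 54281 gene identifiers of the table, and all 43 were among the 15257 genes that passed the filter on low counts and were tested.

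The libraries hold RNA of BMDMs (bone marrow-derived macrophages), which are macrophages grown from mouse bone marrow in medium with L929 cell supernatant, to follow the response to loss of the DNA-degrading exonuclease TREX1. Cells carried either Trex1 FL/FL, in which Cre can cut out both alleles, or Trex1 WT/FL, in which a wild type allele stays and the cells become heterozygous. Both genotypes carried R26CreERT2, a Cre expressed from the Rosa26 locus that becomes active when 4-hydroxytamoxifen (4-OHT) binds to it, so the control BMDMs had CreERT2 and a cut allele too. Cells received 2 µg/ml 4-OHT for 22 h or were left untreated and were harvested on days 1, 2, 3 and 4, counted from the end of exposure, which makes 16 groups of 2 libraries. The labels name no animal, age, batch or replicate number, and replicates 1 and 2 are only names here. P-values therefore measure the spread between these libraries, which may be technical.

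Before a cell enters S phase, the origin recognition complex, CDC6 and CDT1 load the MCM2-7 helicase on DNA. CDC45 and the GINS complex then turn MCM2-7 into the active helicase, polymerase alpha-primase lays down primers, polymerases epsilon and delta extend them with the clamp PCNA, and the lagging strand is made as Okazaki fragments whose flaps are cut by FEN1, DNA2 or EXO1 and whose nicks are sealed by LIG1. Cells that leave the cell cycle are known to lower many of these transcripts together.

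Totals ranged from 35120505 to 63760884 counts per library, with a median of 44841991. Levels are given as CPM (counts scaled by library size and TMM factors to a fixed sum). Trex1, the targeted gene, was at 0 and 0 counts on days 1, 3 and 4 and at 14 and 9 counts on day 2 in 4-OHT-treated FL/FL BMDMs. It was at 47.8 and 49.0 CPM on day 4 in 4-OHT-treated WT/FL cells, at 101 and 90.3 CPM in untreated FL/FL cells and at 78.6 and 89.9 CPM in untreated WT/FL cells. Its loss matched the labels of the 8 4-OHT-treated FL/FL libraries, while Trex1 does not check the genotype of untreated cells. All 8 macrophage markers, Adgre1 and Csf1r among them, had counts in every library, with a summed level of 15300 to 48700 CPM. Summed markers of granulocytes (7 genes) reached at most 18.8 CPM, of B cells (5) 6.58, of fibroblasts (4) 2.27, of dendritic cells (4) 2.21, of mast cells and basophils (4) 1.40 and of T cells (5) 0.541 CPM, and Cd8a and Mcpt8 were at 0 in every library. The 3 endothelial markers summed to 7.64 to 71.8 CPM and moved with the group. They stood at 35.2 and 37.2 CPM in 4-OHT-treated FL/FL cells on day 4 against 9.59 and 11.5 CPM in WT/FL cells, where Kdr held 31.3 and 33.0 against 4.12 and 5.23 CPM, Pecam1 was lower at 3.52 and 3.97 against 5.30 and 5.99 CPM, and the defining marker Cdh5 was at 0.415 and 0.242 against 0.169 and 0.259 CPM. Kdr was singled out here after its values were seen, and the markers' part in the results was not tested.

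In all 4 combinations of genotype and treatment, the replication genes started high on day 1, and nearly all of them fell up to day 3. On day 1 the most abundant per length were Pcna at 170, Rrm2 at 61.4 and Mcm6 at 59.8 CPM per kb of exon in untreated WT/FL cells, and the least were Exo1 at 2.44 and Orc1 at 2.22. From day 1 to day 2, 38 of 43 genes fell in 4-OHT-treated FL/FL cells against a background of 19.4% of all tested genes that fell. The counts were 40 in untreated FL/FL (background 18.3%), 42 in 4-OHT-treated WT/FL (18.4%) and 39 in untreated WT/FL cells (18.1%). The median log2 fold changes of the 43 genes were -0.98, -0.82, -0.94 and -0.91 in the same order, beside -0.00357, 0.00425, 0.0021 and 0.00644 for all tested genes.

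The fall from day 2 to day 3 was deeper. It took in 41 genes in 4-OHT-treated FL/FL (background 18.0%), 42 in untreated FL/FL (18.2%), 42 in 4-OHT-treated WT/FL (18.6%) and 42 in untreated WT/FL cells (17.8%), with medians of -1.72, -1.85, -1.75 and -1.67. Fewer cycling cells and less RNA of these genes per cell cannot be told apart in such bulk libraries. Rrm2, a small subunit of ribonucleotide reductase, stood at 204 and 204 CPM on day 1 in untreated WT/FL cells. It went through 79.6 and 73.8 on day 2 to 5.77 and 5.42 CPM on day 3. Its step from day 2 to day 3 was -3.78 ± 0.0885 (log2 fold change ± SE, adjusted p = 5.39e-22).

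The genes differed in how far they fell. Rfc2, a clamp loader subunit, did not pass the test from day 2 to day 3 in any of the 4 combinations (log2 fold changes -0.18 to -0.0903), and Rpa3, the smallest subunit of the single-strand binding protein RPA, did not pass in 4-OHT-treated FL/FL cells (-0.47, adjusted p = 0.0119). The other 41 genes fell in all 4. From day 1 to day 2, 36 genes fell in all 4 combinations, and the other 7 were Gins4, Mcm10, Pcna, Rfc1, Rfc2, Rfc3 and Rpa3. For both steps the shares of all tested genes that fell in all 4 were not computed, so these counts have no background. On day 3, Pcna was still at 52.1 CPM per kb in untreated WT/FL cells and was followed by Rfc1 at 9.59 and Mcm6 at 8.66, while Orc1 was at 0.0528 CPM per kb.

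**Figure D1:**
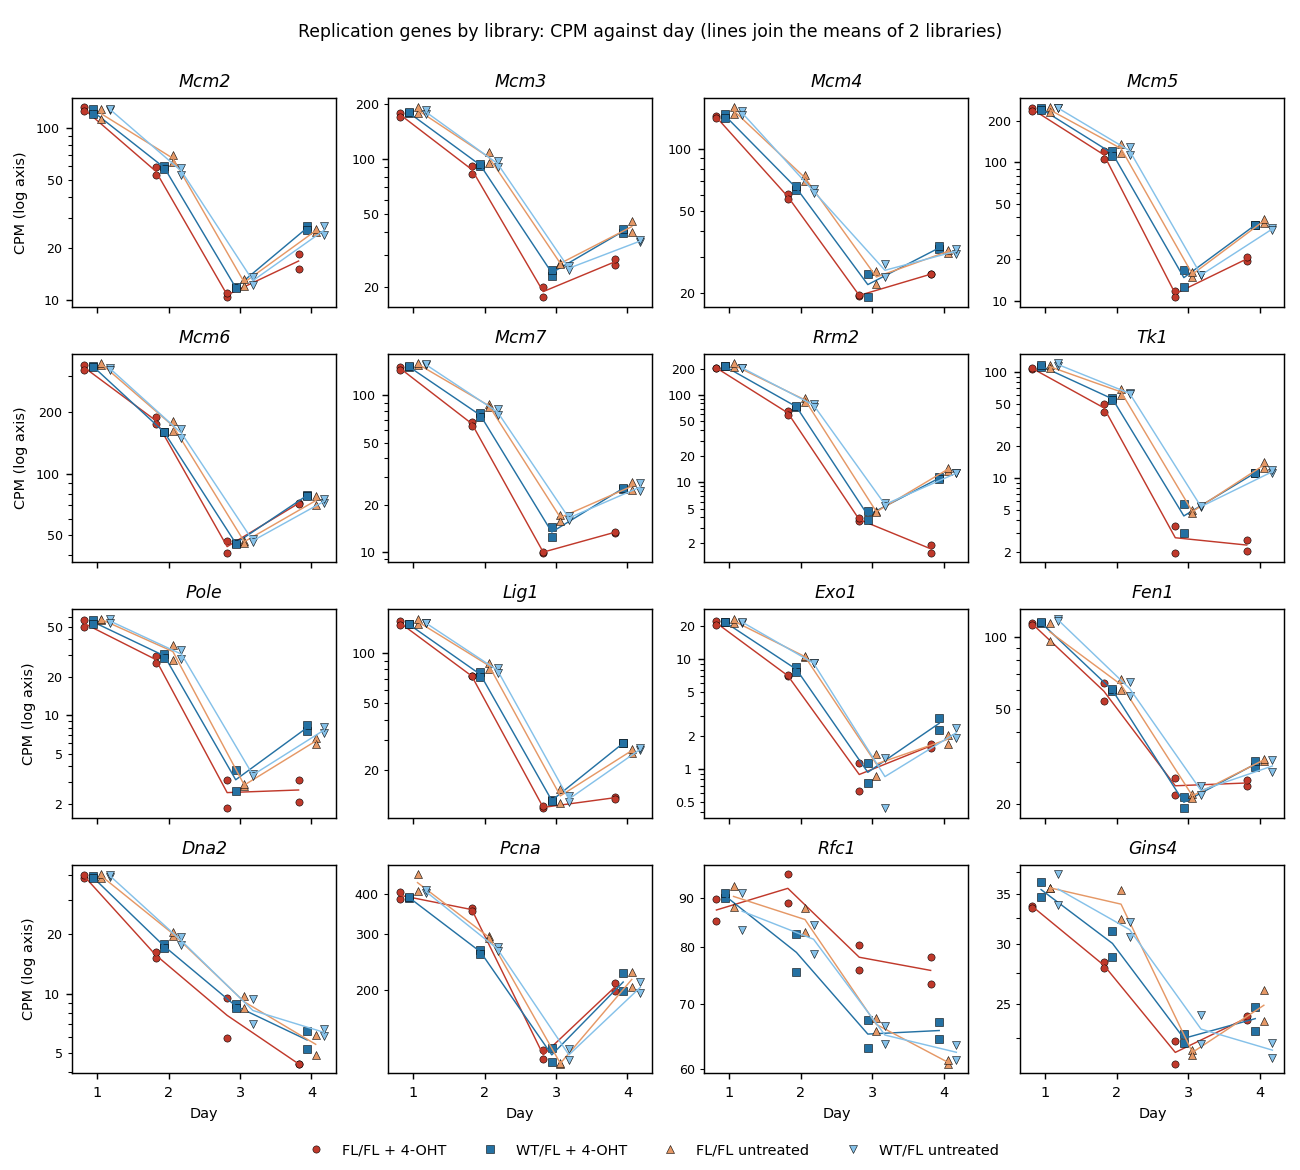
CPM of 16 replication genes (log axis, a different range in each panel) against day after the end of 4-OHT, with 1 point per library and lines through the means of 2 libraries for the 4 combinations of genotype and treatment. The groups lie close together on day 1, and on day 4 the 4-OHT-treated FL/FL libraries lie apart for Rrm2 (1.91 and 1.57 CPM) and Tk1 (2.05 and 2.60 CPM) but overlap the controls for Pcna and Gins4.

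On day 4 the control cells regained part of these transcripts and the BMDMs that had lost Trex1 regained less. In untreated FL/FL cells 29 of 43 genes rose from day 3 to day 4 (background 6.42%) and 1 fell (7.18%). In 4-OHT-treated WT/FL cells 24 rose (6.23%) and 1 fell (5.93%), and in untreated WT/FL cells 24 rose (5.86%) and 0 fell (6.39%). In 4-OHT-treated FL/FL cells 9 rose (3.64%) and 2 fell (5.70%). The median changes were 0.15 in 4-OHT-treated FL/FL against 0.58, 0.59 and 0.52 in untreated FL/FL, 4-OHT-treated WT/FL and untreated WT/FL cells. 30 of the 43 genes had a smaller log2 fold change in 4-OHT-treated FL/FL than in each of the 3 control groups, and 19 rose in each of these 3. The shares of all tested genes that did so were not computed, so these counts have no background beside them.

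The 9 genes that rose in 4-OHT-treated FL/FL cells were the 6 MCM2-7 genes, the loading factor Cdt1, the primase subunit Prim1 and Pcna, and 8 genes rose in all 4 combinations, namely these without Mcm4. The share of all tested genes that rose in all 4 combinations was not computed. The 2 genes that fell were Rrm2 and Dna2, a nuclease and helicase that trims long flaps. Rrm2 fell by 1.11 ± 0.137 on the log2 scale (adjusted p = 1.71e-06) where it rose by 1.61 in untreated FL/FL, 1.41 in 4-OHT-treated WT/FL and 1.19 in untreated WT/FL cells. Dna2 fell by 0.79 ± 0.167 (adjusted p = 0.00136), and it also fell in untreated FL/FL (log2 fold change -0.71) and 4-OHT-treated WT/FL cells (-0.58), with -0.37 (adjusted p = 0.102) in untreated WT/FL cells. It was the gene counted as falling in both control groups.

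The change of the genotype difference from day 3 to day 4 was tested as such. It was negative for 6 genes (background 2.03%), which were Rrm2 (-2.53), Tk1 (-1.49), Pole2 (-1.12), Lig1 (-0.95), Rrm1 (-0.56) and Mcm7 (-0.51). Between days 2 and 3 this change passed the test for 0 genes (background 0.905%), with 7 at an unadjusted p under 0.05, and DESeq2 called 1. The share of all tested genes under that unadjusted p is not given here. Leaving out a library ended the calls of Mcm7 (7 of the 8 libraries), Tk1 (5 of 8) and Pole2 (4 of 8), and those of Rrm2, Lig1 and Rrm1 stayed past the threshold without any of the 8.

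**Figure D2:**
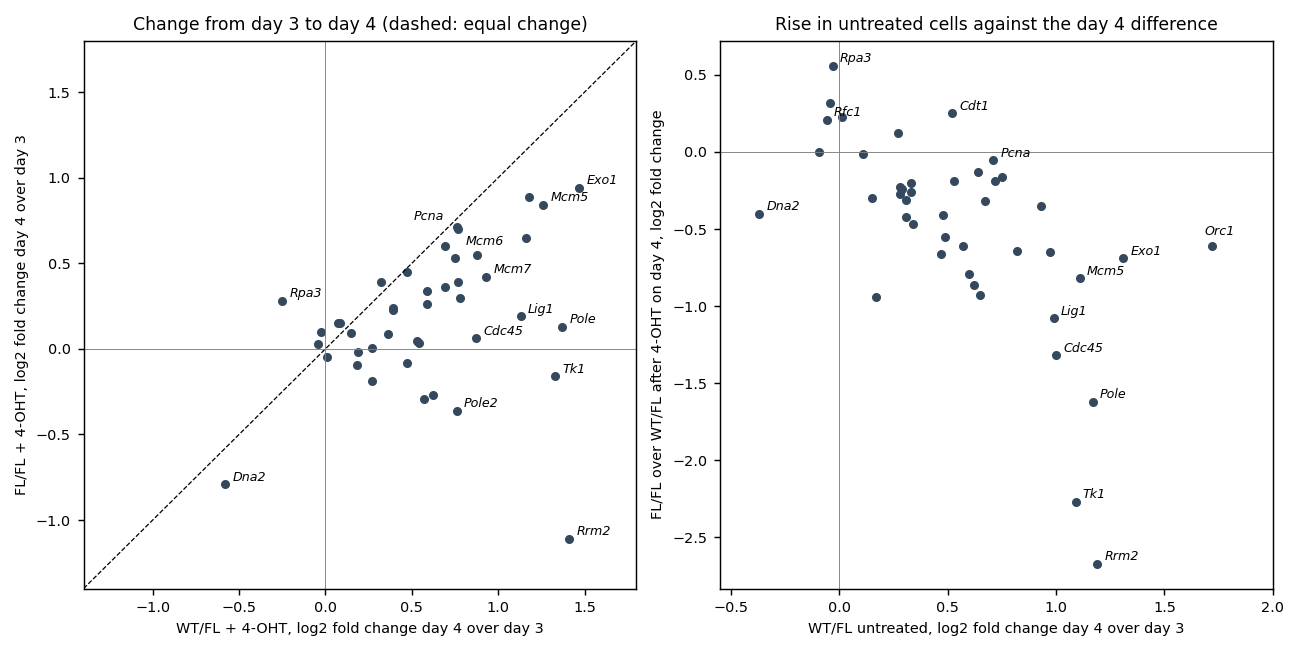
Left, the log2 fold change from day 3 to day 4 of each of the 43 genes in 4-OHT-treated FL/FL (vertical) against 4-OHT-treated WT/FL cells (horizontal), with equal change on the dashed line. Right, the log2 fold change of FL/FL over WT/FL after 4-OHT on day 4 (vertical) against the change from day 3 to day 4 in untreated WT/FL cells (horizontal). Most points on the left lie below the line, with Rrm2 at -1.11 against 1.41.

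The comparison of FL/FL with WT/FL cells after 4-OHT asks what loss of TREX1 does to these genes. On day 4, 19 of the 43 genes were lower in FL/FL cells (background 11.7% of all tested genes lower) and 2 were higher (background 9.84%). The median log2 fold change was -0.35 beside -0.0366 for all tested genes, and 36 of 43 values were below zero. Of the 19, 3 were also below a log2 fold change of -1.5 (background 1.32%), namely Rrm2, Tk1 and Pole. The TMM factors of the 4-OHT-treated FL/FL libraries on day 4 were 0.894 and 0.900 and those of the other day 4 libraries 0.951 to 0.978. RLE and upper-quartile factors gave 20 and 22 called genes in place of 21, and DESeq2 gave 22, but not all were the same genes. Pola1 was lost under RLE and DESeq2, Gins3 under RLE and Rfc2 with no filter, and Rfc1 was gained under RLE, upper-quartile factors and DESeq2. Of the 21, 13 were called in every one of the 7 other fits.

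**Figure D3:**
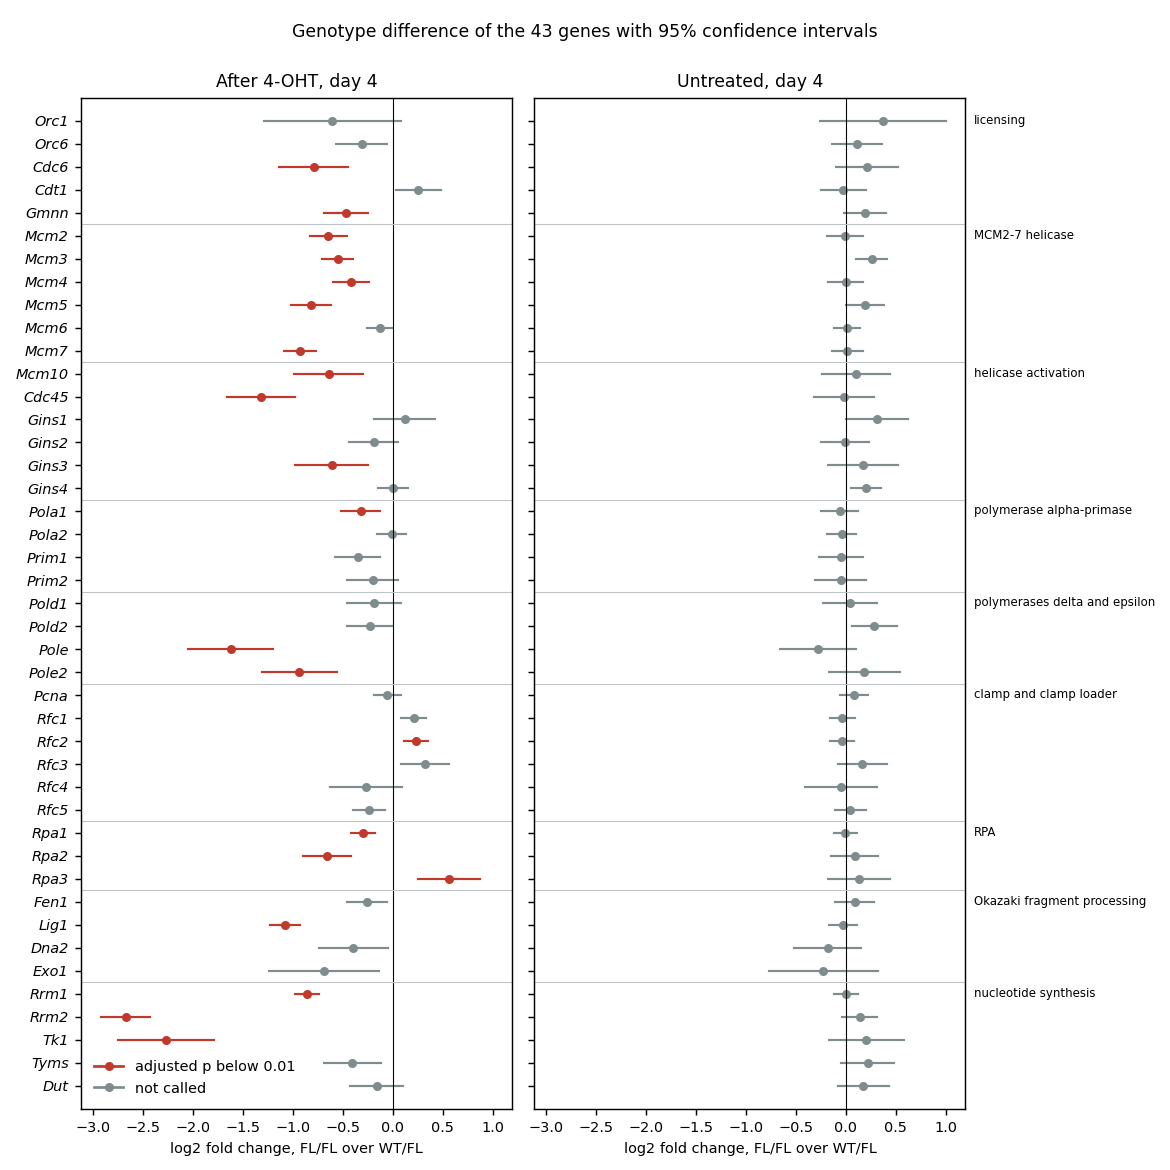
Log2 fold change of FL/FL over WT/FL with its 95% confidence interval for the 43 genes on day 4, after 4-OHT (left) and untreated (right), grouped by role, with genes past an adjusted p of 0.01 in red. After 4-OHT the called values run from -2.67 (Rrm2) to 0.56 (Rpa3), and in untreated cells 0 genes are called.

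Nucleotide synthesis showed the largest differences. Rrm2 stood at 1.91 and 1.57 CPM in 4-OHT-treated FL/FL cells on day 4, at 11.5 and 10.9 in 4-OHT-treated WT/FL, at 13.5 and 14.8 in untreated FL/FL and at 12.8 and 12.7 CPM in untreated WT/FL cells. The 4-OHT-treated FL/FL libraries lay below all others, by 6.38-fold against WT/FL (log2 fold change -2.67 ± 0.118, 95% interval -2.92 to -2.43, adjusted p = 1.55e-15). Rrm2 (ENSMUSG00000020649) lies on chromosome 12 at 24757811 to 24764145 (GRCm39, plus strand), and 44.5% of the 31-base words of its transcripts also occur in other genes, mainly in the antisense gene Gm59512, so reads of this pair could be split.

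Tk1, the thymidine kinase of the salvage route, was at 2.05 and 2.60 CPM in 4-OHT-treated FL/FL against 11.1 and 11.2 CPM in WT/FL cells, 4.81-fold lower (-2.27 ± 0.229, adjusted p = 2.34e-07). The untreated libraries held 12.3 and 14.1 (FL/FL) and 11.1 and 11.8 CPM (WT/FL). Rrm1, the large subunit of ribonucleotide reductase, was at 27.7 and 29.8 against 50.7 and 53.6 CPM, 1.81-fold lower (-0.86 ± 0.0595, adjusted p = 7.16e-12). Rrm1 and Rrm2 were therefore both lower, and the libraries did not overlap.

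Tyms, the thymidylate synthase, was at 3.74 and 3.09 against 4.91 and 4.13 CPM and did not pass the test (-0.41, adjusted p = 0.0261). Dut, which removes dUTP, had the smallest difference of the 5 nucleotide genes, with 6.01 and 5.02 against 6.41 and 5.92 CPM (-0.16, 95% interval -0.43 to 0.10, adjusted p = 0.388). Its libraries overlapped.

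Of the MCM2-7 genes, which encode the ring of the replicative helicase, 5 of 6 were lower on day 4 (median -0.60). Mcm7 had the largest difference, with 13.3 and 13.5 CPM in 4-OHT-treated FL/FL cells against 25.5 and 25.7 in 4-OHT-treated WT/FL, 24.8 and 27.9 in untreated FL/FL and 24.5 and 27.7 CPM in untreated WT/FL cells. It was 1.91-fold lower (-0.93 ± 0.0778, adjusted p = 2.99e-10). Mcm7 (ENSMUSG00000029730, chromosome 5, 138162844 to 138170684, GRCm39, minus strand) shares 28.2% of its words with other genes, Gm5487 and the overlapping Cops6 among them.

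Mcm5 was at 19.3 and 20.7 against 35.1 and 35.4 CPM (-0.82 ± 0.0974, adjusted p = 2.90e-07). Mcm2 was at 15.1 and 18.6 against 26.9 and 25.7 CPM (-0.65 ± 0.0911, adjusted p = 2.63e-06). Mcm3 was at 26.6 and 28.4 against 39.4 and 41.4 CPM (-0.55 ± 0.0774, adjusted p = 2.25e-06). In each of these 3 genes both FL/FL libraries were below the 6 control libraries of the day.

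Mcm4 was at 24.7 and 24.6 against 32.6 and 33.6 CPM (-0.42 ± 0.0871, adjusted p = 0.000387), again below both untreated groups (31.2 and 32.4 CPM in FL/FL, 31.0 and 32.8 CPM in WT/FL). Mcm6 was at 72.2 and 71.1 against 78.6 and 78.2 CPM and did not pass the test (-0.13 ± 0.0645, 95% interval -0.26 to 0.00312, adjusted p = 0.139). Its untreated libraries, at 70.1 and 77.7 (FL/FL) and 71.7 and 75.1 CPM (WT/FL), overlapped the FL/FL libraries with 4-OHT. The 6 subunits of 1 ring thus covered a range of log2 fold changes from -0.93 to -0.13.

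On day 1, the libraries of both genotypes overlapped after 4-OHT for all 6 MCM genes. Mcm6 was at 338 and 320 against 335 and 332 CPM, Mcm5 at 247 and 237 against 247 and 241, and Mcm3 at 178 and 170 against 177 and 180 CPM. Mcm7 (152 and 145 against 151 and 154), Mcm4 (144 and 141 against 148 and 142) and Mcm2 (132 and 125 against 129 and 121 CPM) lay in the same range too. On day 3 Mcm3 (17.7 and 20.2 against 23.1 and 24.9 CPM), Mcm5 (11.8 and 10.6 against 16.7 and 12.6) and Mcm7 (9.94 and 10.1 against 12.5 and 14.4 CPM) were lower. These calls were lost with the 4 libraries of the day alone (adjusted p = 0.0287, 0.0799 and 0.0305). The genotype effect after 4-OHT minus that in untreated cells did not pass for any of them on day 3 (adjusted p = 0.0156, 0.0819 and 0.0145).

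The promoters of 5 of these helicase genes and of Rrm2 are shown because Mcm5 and Mcm7 had the largest differences of the ring, Mcm6 did not pass the test and Rrm2 had the largest difference of all 43 genes. E2F factors bind promoters of S phase genes at words related to TTTCCCGC, TTTCGCGC, TTTGCCGC and TTTGGCGC. The sequences are RefSeq windows of 300 bases (250 before to 50 after the annotated start, GRCm38.p6, an older build than that of the counts), written 5' to 3' on the gene's strand, with these 4 words on either strand in capitals and overlapping words joined. Mcm7 has 2 windows, and the one with such words is printed.
Mcm2, chr6:88898731-88899030 (minus strand): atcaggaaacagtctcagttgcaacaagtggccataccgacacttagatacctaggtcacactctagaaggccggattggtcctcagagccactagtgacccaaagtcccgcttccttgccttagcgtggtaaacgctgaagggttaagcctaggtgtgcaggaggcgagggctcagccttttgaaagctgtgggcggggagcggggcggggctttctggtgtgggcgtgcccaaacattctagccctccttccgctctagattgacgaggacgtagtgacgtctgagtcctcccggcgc
Mcm3, chr1:20820263-20820562 (minus strand): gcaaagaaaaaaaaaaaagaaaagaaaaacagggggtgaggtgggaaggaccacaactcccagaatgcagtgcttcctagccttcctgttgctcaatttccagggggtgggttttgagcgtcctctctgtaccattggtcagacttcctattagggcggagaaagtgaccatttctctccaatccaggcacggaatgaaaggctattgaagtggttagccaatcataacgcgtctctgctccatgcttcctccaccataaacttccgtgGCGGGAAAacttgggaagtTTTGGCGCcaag
Mcm5, chr8:75109259-75109558 (plus strand): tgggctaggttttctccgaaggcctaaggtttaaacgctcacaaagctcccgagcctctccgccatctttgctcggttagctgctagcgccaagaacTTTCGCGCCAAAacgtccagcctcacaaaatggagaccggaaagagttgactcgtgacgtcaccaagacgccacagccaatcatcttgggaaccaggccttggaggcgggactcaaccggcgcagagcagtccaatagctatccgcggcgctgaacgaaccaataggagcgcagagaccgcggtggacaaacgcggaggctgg
Mcm6, chr1:128359656-128359955 (minus strand): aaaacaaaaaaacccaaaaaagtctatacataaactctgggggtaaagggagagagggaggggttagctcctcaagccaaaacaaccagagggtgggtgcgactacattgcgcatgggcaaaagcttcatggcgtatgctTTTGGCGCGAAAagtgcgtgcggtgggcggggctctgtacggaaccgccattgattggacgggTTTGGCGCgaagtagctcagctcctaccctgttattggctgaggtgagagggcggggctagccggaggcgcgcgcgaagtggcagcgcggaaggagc
Mcm7, chr5:138171834-138172133 (minus strand): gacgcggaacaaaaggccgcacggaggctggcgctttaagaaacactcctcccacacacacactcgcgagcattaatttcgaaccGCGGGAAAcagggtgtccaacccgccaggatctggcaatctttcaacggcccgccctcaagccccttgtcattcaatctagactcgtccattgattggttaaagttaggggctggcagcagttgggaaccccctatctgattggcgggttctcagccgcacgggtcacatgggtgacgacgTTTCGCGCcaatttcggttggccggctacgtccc
Rrm2, chr12:24708004-24708303 (plus strand): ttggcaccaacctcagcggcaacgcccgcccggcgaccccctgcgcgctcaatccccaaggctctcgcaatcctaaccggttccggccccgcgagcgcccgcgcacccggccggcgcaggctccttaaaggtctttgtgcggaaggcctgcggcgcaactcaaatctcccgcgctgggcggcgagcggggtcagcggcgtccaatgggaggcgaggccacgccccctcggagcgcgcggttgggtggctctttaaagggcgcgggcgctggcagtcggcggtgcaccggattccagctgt

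Of the 43 genes, 34 had a promoter entry, and Gmnn, Mcm4, Gins1, Gins2, Gins4, Prim2, Pole, Rfc2 and Exo1 had none in the table used. An exact E2F word on either strand stood in at least 1 window of 13 of the 34 genes (38.2%), against 704 of 27025 genes of the table (2.6%). The 13 were Cdc6, Cdt1, Gins3, Lig1, Mcm3, Mcm5, Mcm6, Mcm7, Orc1, Pola1, Pold1, Pole2 and Rfc3. The CCAAT box was in 21 of 34 (61.8%) against 41.1% of all genes, and the cell cycle words TTTGAA or TTCGAA were in 7 of 34 (20.6%) against 21.7%.

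Genes both with and without an exact E2F word were lower on day 4. Of the 13 with a word, 8 were lower (median log2 fold change -0.61), and of the 21 without, 8 were lower (median -0.31). Mcm6, with 3 words of which 2 overlap, did not pass, and Mcm3, Mcm5 and Mcm7, with 2 each, were lower. Rrm2 and Mcm2 were lower with no exact word in the window shown. A match of these letters is a description of the sequence and not a mapped site.

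Among the licensing genes, 2 of 5 were lower on day 4 (median -0.47). Cdc6, the ATPase that helps to load MCM2-7, was at 2.08 and 2.33 CPM in 4-OHT-treated FL/FL against 3.61 and 4.04 in WT/FL cells (-0.79 ± 0.168, adjusted p = 0.000516), with 3.80 to 4.82 CPM in the 4 untreated libraries. Gmnn, which encodes geminin, the inhibitor of CDT1, was at 11.2 and 9.78 against 14.7 and 14.3 CPM (-0.47 ± 0.105, adjusted p = 0.000928). The origin recognition genes Orc1 (-0.61, adjusted p = 0.187) and Orc6 (-0.31, adjusted p = 0.0602) did not pass.

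Cdt1 had a value above zero. It was at 31.1 and 29.8 CPM in 4-OHT-treated FL/FL cells, above 26.1 and 25.0 in 4-OHT-treated WT/FL and above 22.2 and 21.3 (FL/FL) and 22.6 and 21.7 CPM (WT/FL) in untreated cells. The difference between the genotypes after 4-OHT did not pass (0.25 ± 0.108, 95% interval 0.0301 to 0.48, adjusted p = 0.0817), whereas 4-OHT-treated exceeded untreated FL/FL cells (0.49, adjusted p = 0.00120). Without untreated FL/FL replicate 2 or 4-OHT-treated FL/FL replicate 1 this last call was lost (adjusted p up to 0.0190).

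Of the 6 genes that activate the helicase, 3 were lower (median -0.40). Cdc45, the helicase cofactor, was at 1.55 and 1.51 CPM against 3.88 and 3.76 in 4-OHT-treated WT/FL cells and 3.10 to 4.21 CPM in the untreated libraries, 2.49-fold lower (-1.32 ± 0.164, adjusted p = 3.71e-07). Mcm10, which binds the origin at this step, was at 5.23 and 4.09 against 7.90 and 6.66 CPM (-0.64 ± 0.168, adjusted p = 0.00472). Of the 4 GINS subunits, which act as 1 complex, 1 passed the test.

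Gins3 was lower (3.57 and 2.48 against 5.20 and 4.06 CPM, -0.61 ± 0.177, adjusted p = 0.00870), but Gins2 (-0.19, adjusted p = 0.245) and Gins1 (0.12, adjusted p = 0.617) did not pass. Gins4 was at 23.8 and 24.1 against 24.8 and 23.0 CPM, with a log2 fold change of 0.000626 ± 0.0745 (95% interval -0.15 to 0.15), and its sign flipped with no filter on low counts. Gins2 shares 63.2% of its words with the overlapping gene Gse1, and its values are uncertain for that reason.

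Polymerase alpha-primase, which makes the primer of every Okazaki fragment, had small differences (median -0.26), and 1 of 4 genes was lower. Pola1, its catalytic subunit, was at 10.1 and 11.9 against 13.5 and 14.0 CPM (-0.32 ± 0.0948, adjusted p = 0.00957), a call lost under RLE factors (0.0144), DESeq2 (0.0141) and with the 4 libraries of the day (0.0870). Prim1 was at 4.90 and 5.72 against 6.74 and 6.83 CPM (-0.35 ± 0.110, adjusted p = 0.0147), Prim2 differed by -0.20 (adjusted p = 0.242), and neither passed. Pola2, the regulatory subunit, was at 19.8 and 21.8 against 20.7 and 21.2 CPM (-0.0129, 95% interval -0.16 to 0.13), with a sign that flipped under RLE factors and DESeq2.

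Of the listed genes, Pole and Pole2 of polymerase epsilon were lower, and Pold1 and Pold2 of polymerase delta did not pass the test. Pole, the catalytic subunit of polymerase epsilon on the leading strand, was at 3.07 and 2.09 CPM against 7.58 and 8.43 in 4-OHT-treated WT/FL and 5.90 to 8.15 CPM in untreated cells, 3.08-fold lower (-1.62 ± 0.204, adjusted p = 1.77e-06). Its second subunit Pole2 was at 2.08 and 2.94 against 3.92 and 5.71 CPM, 1.92-fold lower (-0.94 ± 0.183, adjusted p = 0.000218). Pold1, the catalytic subunit of polymerase delta, was at 24.9 and 18.6 against 25.8 and 23.9 CPM (-0.19, 95% interval -0.46 to 0.0816, adjusted p = 0.309), and Pold2 differed by -0.23 (adjusted p = 0.119). Whether the differences of Pole and Pold1 differ from each other was not tested.

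The clamp and its loader were the role with the least decrease, with 0 of 6 genes lower, 1 higher and a median of 0.0755. Pcna was at 210 and 198 CPM in 4-OHT-treated FL/FL against 226 and 198 in 4-OHT-treated WT/FL, 204 and 228 in untreated FL/FL and 212 and 196 CPM in untreated WT/FL cells, and the groups overlapped (-0.0548 ± 0.0679, 95% interval -0.19 to 0.0848, adjusted p = 0.606). Rfc2 was higher, at 49.6 and 50.6 against 41.7 and 43.8 CPM (0.23 ± 0.0582, adjusted p = 0.00305), though its 26.5% of words shared with other genes, mostly the overlapping Lat2, make the value uncertain.

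Rfc1, the largest loader subunit, was at 73.3 and 78.2 against 64.4 and 67.0 CPM (0.21 ± 0.0614, adjusted p = 0.0111), and Rfc3 at 13.4 and 14.4 against 11.6 and 10.5 CPM (0.32 ± 0.116, adjusted p = 0.0350). Rfc5 (-0.24, adjusted p = 0.0201) and Rfc4 (-0.27, adjusted p = 0.268) had values below zero. None of these 4 passed in edgeR with TMM factors, but Rfc1 passed under RLE (adjusted p = 0.00761) and upper-quartile factors (0.00915) and under DESeq2 (0.00528).

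Earlier, Pcna was the exception in the other direction. On day 2 it was at 363 and 354 CPM in 4-OHT-treated FL/FL cells, above 268 and 260 in 4-OHT-treated WT/FL, 295 and 292 in untreated FL/FL and 273 and 266 CPM in untreated WT/FL cells. The difference from WT/FL cells was 0.44 ± 0.0677 (adjusted p = 2.63e-05), and it stayed past the threshold without any of the 4 libraries. Pcna was 1 call among the 43 genes on day 2, a share below the background of 5.69% of all tested genes higher. The genotype effect after 4-OHT minus that in untreated cells was 0.32 on day 2 and did not pass (adjusted p = 0.0454). The endothelial marker Kdr, picked after its values were seen, was at 69.1 and 68.5 against 17.6 and 13.6 CPM on day 2. The other endothelial markers, Pecam1 and Cdh5, are given for day 4 only, so how they lay on day 2 is not shown here. On day 4 Pecam1 was lower in 4-OHT-treated FL/FL than in WT/FL cells, and the Cdh5 libraries overlapped. The part of these markers in the Pcna result was not tested. The Pcna libraries of day 1 overlapped (388 and 407 against 390 and 393 CPM), as did those of day 3 (129 and 121 against 131 and 119 CPM). The change of the difference from day 1 to day 2 was 0.42 (adjusted p = 0.00654, background 2.67% higher), a call that was lost without any of the 8 libraries and with upper-quartile factors. It was 1 call among the 43 genes, a share below that background. Pcna shares 35.3% of its words with other genes, Pcna-ps2 and the overlapping AV099323 among them.

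Of the 3 genes of RPA, the trimer that coats single-stranded DNA, 2 were lower and 1 was higher. Rpa1 was at 50.3 and 53.8 against 63.2 and 65.1 CPM (-0.30 ± 0.0587, adjusted p = 0.000203), and Rpa2 at 9.97 and 7.39 against 14.3 and 13.1 CPM (-0.66 ± 0.117, adjusted p = 6.42e-05). Rpa3 was higher, at 8.25 and 5.90 against 5.20 and 4.39 CPM (0.56 ± 0.152, adjusted p = 0.00547). The untreated libraries of Rpa3 held 5.42 to 6.74 CPM and overlapped the 4-OHT-treated FL/FL libraries, and without 4-OHT-treated FL/FL replicate 1 the difference was 0.29 (adjusted p = 0.273).

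Flaps cut off Okazaki fragments are a possible source of the DNA that TREX1 degrades, and of the 4 genes that process these fragments 1 was lower on day 4 (median -0.54). Lig1, the ligase that seals the fragments, was at 13.8 and 13.5 CPM against 29.0 and 28.8 in 4-OHT-treated WT/FL and 25.4 to 27.0 CPM in untreated cells, 2.12-fold lower (-1.08 ± 0.0727, adjusted p = 3.79e-12). Of the flap nucleases, Fen1 and Dna2 did not pass, and the call of Exo1 depended on the setting. Fen1, the main flap endonuclease, was at 23.7 and 25.3 against 28.6 and 30.2 CPM (-0.26 ± 0.0968, 95% interval -0.46 to -0.0606, adjusted p = 0.0432), and 59.7% of its words are shared, most with the overlapping Gm10143. Dna2 was at 4.40 and 4.39 against 5.20 and 6.42 CPM (-0.40 ± 0.168, adjusted p = 0.0789).

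Exo1 (ENSMUSG00000039748, chromosome 1, 175708143 to 175741055, GRCm39, plus strand) encodes a 5' exonuclease that also cuts flaps. In 4-OHT-treated FL/FL cells it went from 22.2 and 20.4 CPM on day 1 through 6.96 and 7.13 and 1.14 and 0.633 to 1.69 and 1.54 CPM on day 4. In 4-OHT-treated WT/FL cells it went from 21.6 and 21.7 through 8.54 and 7.55 and 1.12 and 0.737 to 2.92 and 2.27 CPM. Exo1 thus fell with the other genes up to day 3, and the genotypes overlapped on day 3.

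On day 4 the Exo1 difference was -0.69 ± 0.266 (95% interval -1.24 to -0.14, adjusted p = 0.0542), with untreated libraries at 1.68 and 2.03 (FL/FL) and 2.34 and 1.92 CPM (WT/FL). This 1.61-fold difference passed the threshold with no filter on low counts (adjusted p = 0.00349) and under DESeq2 (0.00996) and under no other setting, so the call depends on the setting. The differences on days 2 and 3 were -0.19 and -0.16. On day 1 Fen1 (114 and 112 against 114 and 115 CPM) and Dna2 (38.8 and 40.1 against 39.5 and 38.6 CPM) had near-equal values too.

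On day 1 none of the 43 genes passed the test between the genotypes after 4-OHT (background 0.0197%, 0 of 43 at an unadjusted p under 0.05, 0 by DESeq2), and their values ran from -0.16 to 0.0883. On day 2, 1 gene was higher, Pcna (background 5.69%), and 0 were lower (background 2.48%). On day 3, 1 gene was higher (background 6.69%) and 4 were lower (background 5.42%). The higher gene was Rfc1 (0.26, adjusted p = 0.00239). The lower ones were Mcm7 (-0.42, adjusted p = 0.000395), Mcm5 (-0.40, adjusted p = 0.00772), Mcm3 (-0.33, adjusted p = 0.00313) and Rrm1 (-0.30, adjusted p = 0.000436). The medians of the 43 genes were -0.0124, -0.0476, -0.0773 and -0.35 on days 1 to 4.

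The day 3 calls rested on few libraries. Rrm1, at 30.4 and 30.4 against 37.3 and 37.7 CPM, kept its call without any of the 4 libraries. Mcm7 lost it without 4-OHT-treated WT/FL replicate 2 (largest adjusted p 0.0197), Mcm3 without that library or FL/FL replicate 1 (0.0873), Rfc1 without WT/FL replicate 1 or FL/FL replicate 2 (0.0615), and Mcm5 without WT/FL replicate 1 or either FL/FL replicate (0.358). Rrm2 and Tk1, the genes with the largest differences on day 4, had values of -0.15 (adjusted p = 0.416) and -0.78 (adjusted p = 0.0261) on day 3.

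Without 4-OHT no difference between the genotypes passed the test in these genes. 0 of 43 genes were called on each of days 1 to 4 (background 0%, 0%, 0% and 0.0655%), DESeq2 also gave 0, and 0, 5, 4 and 4 genes had an unadjusted p under 0.05. On day 4 the values ran from -0.28 (Pole) to 0.37 (Orc1). 4-OHT in WT/FL cells gave 0 calls on each day as well (background 0.00655%, 0.0918%, 0.341% and 0.216%), 0 by DESeq2, and 0, 0, 8 and 4 genes at an unadjusted p under 0.05. For both comparisons the shares of all tested genes under that unadjusted p are not given, so these counts have no background. The day 4 values of 4-OHT in WT/FL cells ran from -0.32 (Rpa3) to 0.28 (Exo1).

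4-OHT in FL/FL cells, where both alleles are lost, compared treated with untreated cells of the same genotype. On day 1, 0 genes were called (background 0.0131%, 0 at an unadjusted p under 0.05, 0 by DESeq2). On day 2, 1 gene was higher (background 7.49%), Pcna at 0.29, and 7 were lower (background 3.59%). The 7 were Dut (-0.54), Rrm2 (-0.49), Tyms (-0.40), Mcm7 (-0.38), Mcm4 (-0.31), Rrm1 (-0.27) and Gins4 (-0.27), so 4 of the 5 nucleotide synthesis genes were among them. Rrm2 was at 65.2 and 59.6 CPM treated and 92.5 and 83.1 CPM untreated, and Dut at 14.9 and 11.8 against 20.0 and 19.0 CPM. Leaving out 1 library at a time left 3 to 4 calls in place of 8. Mcm7 and Rrm2 kept theirs throughout, Mcm4, Pcna and Tyms lost theirs without any of the 4 libraries, Gins4 without untreated replicate 2 or either treated replicate, Rrm1 without replicate 1 of either group, and Dut without untreated replicate 1 or treated replicate 2.

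On day 3, 2 genes were higher with 4-OHT in FL/FL cells (background 8.12%), Rfc3 (0.45) and Rfc1 (0.23), and 4 were lower (background 7.57%), Mcm7 (-0.73), Mcm3 (-0.50), Mcm5 (-0.48) and Rrm1 (-0.35). The count of higher genes was below its background and that of lower genes near it. Without a library the calls of Mcm5 (2 of 4 libraries), Rfc3 (3 of 4) and Rfc1 (4 of 4) were lost. On day 4, 2 were higher (background 10.2%), Cdt1 (0.49) and Rfc1 (0.31), and 23 were lower (background 11.2%), led by Rrm2 (-3.01), Tk1 (-2.50), Pole (-1.28) and Cdc45 (-1.24). Of these 25 calls, 13 held without any 1 of the 4 libraries, which left 17 to 22 calls, and the other 12 (Orc6, Cdt1, Mcm4, Gins3, Pola1, Pold2, Pole2, Rfc5, Rpa1, Rpa2, Tyms and Dut) were each lost without at least 1 library (adjusted p up to 0.121). With no filter Pold2 (0.0117) and Rfc5 (0.0108) were lost too. This comparison shares the 4-OHT-treated FL/FL libraries with that between the genotypes. Side by side, Tyms had -0.67 here and -0.41 there, Dut -0.51 and -0.16, Orc6 -0.47 and -0.31, Pold2 -0.40 and -0.23, and Rfc5 -0.32 and -0.24.

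The difference of the differences, that is the genotype effect after 4-OHT minus that in untreated cells, passed for 0 genes on day 1 (background 0.00655%, 0 by DESeq2). It was negative for Rrm2 on day 2 (-0.43, adjusted p = 0.00753, background 0.492%) and for Rrm1 on day 3 (-0.45, adjusted p = 0.000671, background 2.00%). The single day 3 call is near its background. On day 4 the difference of the differences was negative for 14 genes (background 5.24%). These were Rrm2 (-2.81), Tk1 (-2.47), Pole (-1.34), Cdc45 (-1.30), Pole2 (-1.12), Lig1 (-1.05), Mcm5 (-1.01), Cdc6 (-1.0), Mcm7 (-0.95), Rrm1 (-0.86), Mcm3 (-0.81), Rpa2 (-0.75), Gmnn (-0.66) and Mcm2 (-0.64). The day 2 call of Rrm2 was lost without any of 5 of the 8 libraries (untreated WT/FL replicate 2, both 4-OHT-treated WT/FL replicates, untreated FL/FL replicate 1 and 4-OHT-treated FL/FL replicate 2), whereas that of Rrm1 on day 3 stayed past the threshold without any of 8.

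**Figure D4:**
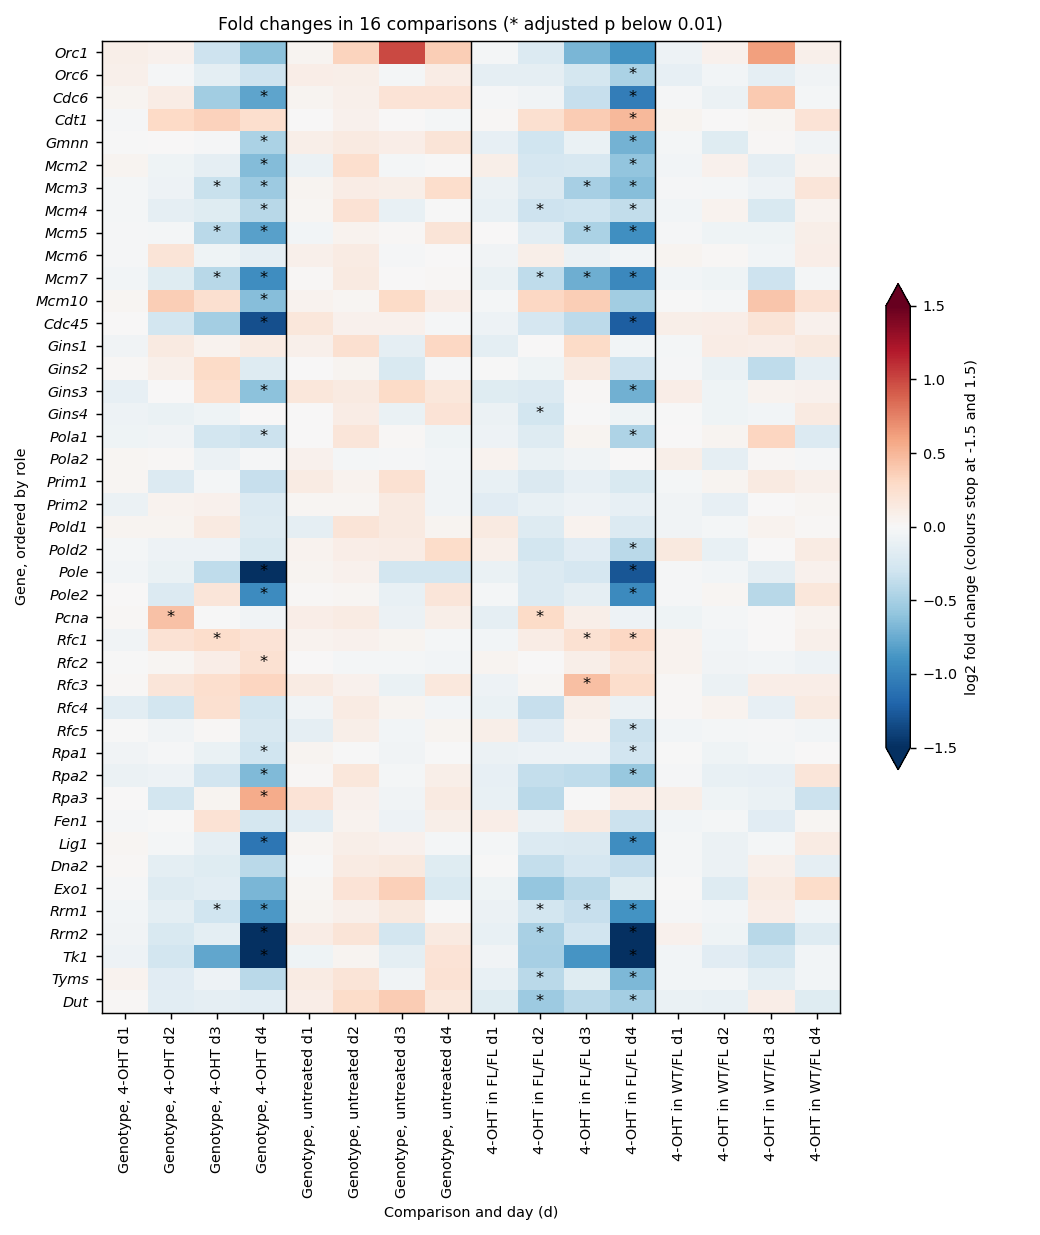
Log2 fold changes of the 43 genes (rows, by role) in 16 comparisons (columns), namely the genotypes after 4-OHT and untreated and 4-OHT against untreated in FL/FL and in WT/FL cells, on days 1 to 4. Blue is lower and red is higher, with colours that stop at -1.5 and 1.5, and an asterisk marks an adjusted p below 0.01. Asterisks stand in the columns of 4-OHT-treated FL/FL cells, and most of them on day 4.

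Of the 21 day 4 calls between the genotypes, 12 held when any 1 of the 4 libraries was left out, namely Mcm2, Mcm3, Mcm4, Mcm5, Mcm7, Cdc45, Pole, Rpa2, Lig1, Rrm1, Rrm2 and Tk1. The other 9 lost significance without at least 1 library. Cdc6 (adjusted p = 0.0174) and Rpa1 (0.0110) lost it without 4-OHT-treated FL/FL replicate 1. Gmnn (0.0110 and 0.0305), Mcm10 (0.0786 and 0.0921) and Gins3 (0.173 and 0.199) lost it without WT/FL replicate 1 and without FL/FL replicate 2. Pole2 (0.0168 and 0.0205) and Rpa3 (0.0838 and 0.273) lost it without WT/FL replicate 2 and without FL/FL replicate 1. Rfc2 lost it without WT/FL replicate 1 or either FL/FL replicate (up to 0.0566), and Pola1 without either WT/FL replicate or FL/FL replicate 1 (up to 0.223). All 21 kept their sign in every alternative.

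How much a gene regained in control cells from day 3 to day 4 and how far it lay below control on day 4 were related across the 43 genes. Between the change in untreated WT/FL cells and the genotype difference after 4-OHT, measures with no library in common, Pearson's r was -0.62 and Spearman's rho -0.63 (r = -0.71 without Orc1 and Dna2). With the change in untreated FL/FL cells they were -0.69 and -0.58 (r = -0.71 without Dna2 and Rrm2). Both are descriptions across genes, which are not independent replicates. Lig1 (0.99), Pole (1.17), Tk1 (1.09) and Rrm2 (1.19) rose in untreated WT/FL cells and were lower without Trex1, while Rfc1 (-0.0578), Rfc2 (0.0119) and Rpa3 (-0.0298) had values near zero in untreated WT/FL cells and positive genotype differences.

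Mcm6 and Pcna rose in the controls and lay close to zero in the genotype comparison. Mcm6 rose by 0.64 and Pcna by 0.71 in untreated WT/FL cells, and they rose by 0.70 and 0.71 in 4-OHT-treated FL/FL cells. Their genotype differences on day 4 were -0.13 and -0.0548.

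Other replication genes outside the 43, such as cohesion, fork protection and nucleotide pool genes, had 14 of 46 lower (background 11.7%) and 5 higher (9.84%) on day 4, at a median of -0.25. The largest differences were those of Clspn, the fork protection adaptor claspin, at 1.66 and 1.79 against 7.63 and 7.00 CPM (-2.09), Dscc1, a subunit of the alternative clamp loader, at 0.360 and 0.121 against 0.962 and 0.994 CPM (-1.99), and Uhrf1, which couples DNA methylation to replication, at 5.92 and 6.02 against 19.3 and 18.8 CPM (-1.67). Dscc1 was at a low level and its FL/FL libraries lay apart, so the size of its difference is uncertain. Of 20 mitosis genes, 19 were lower (background 11.7%) and 1 was higher (9.84%), with a median of -2.32. In 4-OHT-treated FL/FL cells 16 of the 20 fell from day 3 to day 4 (background 5.70%). In 4-OHT-treated WT/FL cells 18 rose (background 6.23%).

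Mki67, a marker of cycling cells, was at 5.76 and 7.66 CPM in 4-OHT-treated FL/FL cells on day 4 against 47.9 and 47.2 in WT/FL cells (-2.83, adjusted p = 1.36e-15). Between days 3 and 4 it fell by 2.12 on the log2 scale in 4-OHT-treated FL/FL cells, while the median of the 43 genes was 0.15. Cdkn1a, which encodes the cell cycle inhibitor p21, was at 489 and 468 against 235 and 227 CPM (1.05, adjusted p = 9.33e-14), and its differences were 0.42 on day 2 and 0.58 on day 3.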

How the data were processed

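RNA of 32 BMDM libraries (16 groups of 2) was sequenced on a NovaSeq. Per the labels and the methods, the authors quantified reads with Salmon against GRCm39 and summarised them per gene. The deposited values are estimated counts (expected counts) rounded to whole numbers, not normalized. The annotation release is not given in the sources used here. The submitters' processing notes also name FastQC 11.9 and DESeq2 1.32. Salmon assigns reads shared by overlapping or similar genes by estimate, so such genes are uncertain. The share of 31-base words is given for that reason with the results of Rrm2, Mcm7, Gins2, Rfc2, Pcna and Fen1. Among the other genes the largest shares were 43.5% for Rfc5, 23.3% for Rfc4 and 20.7% for Gmnn. The values of these genes are uncertain too.

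Symbols came from GENCODE vM39, which matched 51048 of 54281 identifiers, and the unmatched ones held 0.32% of counts. Genes were filtered with filterByExpr (minimum count 10), scaled by TMM and fitted with 16 group means in edgeR 4.0.16 (robust quasi-likelihood test, R 4.3.3, limma 3.58.1, common BCV 0.0912, prior count 2 for log2 CPM). Contrasts compared genotypes, treatments and days, and p-values were adjusted by Benjamini-Hochberg over 15257 genes. A call is an adjusted p below 0.01, and a second rule adds an absolute log2 fold change above 1.5. Intervals and SE are those of the log2 fold change. On counts simulated for the genotype comparison after 4-OHT on day 4 (15072 genes), the test recovered 127 of the 200 genes given a true log2 difference of 1 and called 1 unchanged gene.

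Other settings tried were upper-quartile and RLE factors, no filter, a minimum count of 50, fewer libraries, DESeq2 1.42.0, an adjusted p of 0.05, the second rule and leaving out each library. Libraries of a group differed beyond sampling noise (chi-square per degree of freedom 8.55 to 47.0), so none was counted as a duplicate. All 43 genes are counted and named. Values per library are given for the MCM2-7, Exo1, Fen1, Dna2 and Pcna genes and, per role, for the genes with the largest and smallest genotype difference after 4-OHT on day 4, and other genes were added from the calls. The genes and lists were chosen with earlier results of these data known. Tables were handled with Python 3.11.15, pandas 2.3.3, SciPy 1.17.1 and matplotlib 3.10.9. A further marker list was computed and is not reported here.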

Additional observations from a re-analysis of the deposited data

Results flagged for a closer look

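The results below are differences between 2 effects of the same contrast, each tested as such in edgeR's quasi-likelihood fit with adjustment over all genes. The genotype effect after 4-OHT differed from that in untreated cells on day 4 for 14 genes (background 5.24% of all tested genes lower). The value was -2.81 for Rrm2 (adjusted p = 3.18e-13), -2.47 for Tk1 (4.86e-06) and -0.86 for Rrm1 (1.34e-08) among the nucleotide synthesis genes. It was -1.01 for Mcm5 (4.40e-06), -0.95 for Mcm7 (2.18e-07), -0.81 for Mcm3 (2.71e-06) and -0.64 for Mcm2 (0.000574) among the helicase genes. It was -1.34 for Pole (0.00122), -1.12 for Pole2 (0.00201), -1.05 for Lig1 (1.14e-08), -1.30 for Cdc45 (8.74e-05), -1.0 for Cdc6 (0.00211), -0.75 for Rpa2 (0.00152) and -0.66 for Gmnn (0.00160). When 1 of the 8 libraries was left out, 11 to 13 of the 14 calls were made, and Mcm3, Mcm5, Mcm7, Cdc45, Lig1, Rrm1, Rrm2 and Tk1 kept theirs throughout.

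On day 2 the same difference was -0.43 for Rrm2 (adjusted p = 0.00753), and on day 3 it was -0.45 for Rrm1 (adjusted p = 0.000671). The call of Rrm2 was lost without any of 5 of the 8 libraries (adjusted p up to 0.0652), and that of Rrm1 held without each.

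The genotype difference after 4-OHT also changed between days. From day 3 to day 4 it moved by -2.53 for Rrm2 (adjusted p = 3.75e-11), -1.49 for Tk1 (0.00935), -1.12 for Pole2 (0.00577), -0.95 for Lig1 (5.37e-07), -0.56 for Rrm1 (4.97e-05) and -0.51 for Mcm7 (0.00392). From day 1 to day 2 it moved by 0.42 for Pcna (adjusted p = 0.00654). This was 1 call among the 43 genes, a share below the background of 2.67% of all tested genes higher. Rrm2, Lig1 and Rrm1 kept their calls when any 1 of the 8 libraries was left out, Mcm7 lost its call without 7 of them, Tk1 without 5 and Pole2 without 4, and Pcna lost its call without each of the 8. With the 16 libraries given 4-OHT alone, Tk1 and Pole2 were not called.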

How the results depend on the processing

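The 21 genotype calls after 4-OHT on day 4 kept their sign under each alternative run, with 20 calls under RLE factors, 22 under upper-quartile factors, 22 under DESeq2, 14 with the 4 libraries of the day and 15 to 18 without 1 library. No paired analysis was possible because the labels give no replicate number. With 2 libraries a group, the spread rests on the shared fit. Of the 21 calls, 13 held in all 7 other fits. No scaling moved the median of all genes by over 0.1.

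Counts of called genes that moved by over 1.5 times were these, and the cause was not tested. After 4-OHT on day 2 the genotypes differed in 1 gene, in 4 with no filter, in 2 with the 16 libraries given 4-OHT, in 2 with the 4 libraries of the day, in 2 with DESeq2, in 4 at an adjusted p of 0.05 and in 0 with the size rule. On day 3 they differed in 5, in 1 with the 4 libraries, in 10 at 0.05, in 0 with the size rule and in 3 to 5 without a library (median -0.11 to -0.00647). On day 4 the size rule left 3.

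4-OHT in FL/FL cells gave 8 calls on day 2, 14 at 0.05, 0 with the size rule and 3 to 4 without a library (median -0.28 to -0.14). On day 3 it gave 6, 12 at 0.05, 0 with the size rule and 3 to 6 without a library (median -0.18 to -0.0141), and on day 4 the size rule left 2 of 25. 4-OHT in WT/FL cells on day 3 gave 1 call with no filter in place of 0.

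The difference of the differences gave 1 call on day 2, 2 at 0.05, 0 with the size rule and 0 to 1 without a library. On day 3 it gave 1, 5 with no filter, 4 at 0.05, 0 with the size rule and 1 to 2 without a library, and on day 4 the size rule left 2 of 14.

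The change of the genotype difference from day 1 to 2 gave 1 call, 0 with upper-quartile factors, 0 with the size rule and 0 without any library (median -0.10 to 0.0144). From day 2 to 3 it gave 0 calls, and 1 with no filter, with a minimum count of 50, with 16 libraries, with DESeq2 and at 0.05, and 0 to 1 without a library (median -0.0901 to 0.0544). From day 3 to 4 it gave 6, 11 with no filter, 12 at 0.05, 1 with the size rule and 3 to 6 without a library (median -0.40 to -0.26).

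Between days, in the order 4-OHT-treated FL/FL, untreated FL/FL, 4-OHT-treated WT/FL and untreated WT/FL, the size rule left 3, 0, 2 and 2 genes from day 1 to 2, 24, 27, 27 and 25 from day 2 to 3, and 0, 1, 0 and 1 from day 3 to 4. From day 3 to 4 in 4-OHT-treated FL/FL cells 7 to 9 genes were called without a library. From day 1 to 2 the median in 4-OHT-treated FL/FL cells was -1.05 with upper-quartile factors and -1.06 to -0.92 without a library, and in untreated WT/FL cells -0.99 to -0.88. From day 2 to 3 the medians without a library were -1.88 to -1.55 in 4-OHT-treated FL/FL, -1.89 to -1.77 in untreated FL/FL and -1.80 to -1.62 in 4-OHT-treated WT/FL cells. From day 3 to 4 they were 0.50 to 0.60 in untreated FL/FL and 0.48 to 0.70 in 4-OHT-treated WT/FL cells.

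Signs of day 4 genotype differences close to zero turned. Gins4 was at -0.000848 with no filter and at -0.0527 to 0.0553 without a library. Pola2 was at 0.00210 under RLE factors, 0.0199 with the 4 libraries of the day, 0.00164 under DESeq2 and -0.0827 to 0.0526 without a library. Without a library Gins1 ranged from -0.0666 to 0.28, Pold1 from -0.42 to 0.00444 and Pcna from -0.15 to 0.0411.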
